A study of Mus musculus with 6 samples.

Results

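The nectin, TIM-3, LAG-3 and VISTA checkpoints were followed as 9 of the 32285 genes measured in leukocytes of mouse lung, matched by gene symbol. They were the receptors Tigit, Cd226 and Cd96 with their ligands Pvr and Nectin2, the TIM-3 gene Havcr2 with its ligand gene Lgals9, Lag3, and the VISTA gene Vsir. On GRCm38 with GENCODE vM21, Pvr lies at chr7:19903578-19921160 and Nectin2 at chr7:19716644-19750483, both on the minus strand, Cd226 at chr18:89176967-89272229 on the plus strand and Lag3 at chr6:124904361-124911705 on the minus strand. The 3 AML lung libraries came from lungs infiltrated by acute myeloid leukaemia and the 3 normal lung libraries from normal lungs. In both groups the lungs were perfused and digested, and CD45-positive cells were bound to magnetic beads and profiled by single-cell RNA sequencing with a 3' kit. Leukaemia model, mouse strain, age and treatment are not in the labels, nor is it said which cells were leukaemic. Nothing in them ties a library to its own animal, and p-values therefore cover the spread between these libraries, which may be technical.

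TIGIT, CD96 and CD226 are receptors of T cells and NK cells that compete for the same nectin-type ligands, above all PVR on antigen-presenting and stromal cells. CD226 (DNAM-1) delivers an activating signal on binding, whereas TIGIT carries inhibitory tail motifs and CD96 has been described with both effects. TIM-3 is an inhibitory receptor of exhausted T cells and is also abundant on dendritic cells and macrophages, LAG-3 binds MHC class II, and VISTA is a regulator found mainly on myeloid cells. In leukaemia, TIM-3 and its ligand galectin-9 are also known from leukaemic stem cells of patients.

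The 6 libraries held 73095 barcodes, of which 71634 passed the cell filters, with totals of 43913245 to 66513826 unique molecular identifiers (UMIs, counted RNA molecules). The median UMIs per barcode were 9381, 3979.5 and 1067 in AML lung libraries 1 to 3, against 9354, 6102 and 2740 in normal lung libraries 1 to 3, so AML 3 was the shallowest per cell. Cells carrying RNA of another lineage were set aside, 6.21%, 14.4% and 32.5% of cells in AML 1 to 3, against 7.89%, 7.88% and 16.4% in normal 1 to 3. Among T and NK cells of AML 3 this was 62.7%. Libraries shared at most 1.13% of the barcodes of the smaller one. The remaining cells were named from marker genes that did not include the 9 genes, and 14 classes with enough cells in both groups were tested. Endothelial cell-like and cycling alveolar macrophage-like cells also had enough cells but were left out of the tests. In each of the 14 tested classes all markers of its own list were detected.

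The promoters of Tigit and Cd96, whose levels ran together over cell classes, are shown with those of Havcr2 and Vsir, which were highest in myeloid classes. Each runs from 250 bases before to 50 bases after the start of the gene, 5′ to 3′ on the gene's strand, from RefSeq on GRCm38.p6. Capitals mark TGTGGT, the core of RUNX sites, and GGAAGT, a core of ETS sites, on either strand, so ACCACA and ACTTCC are the reverse complements.
Tigit, chr16:43664135-43664434, minus strand: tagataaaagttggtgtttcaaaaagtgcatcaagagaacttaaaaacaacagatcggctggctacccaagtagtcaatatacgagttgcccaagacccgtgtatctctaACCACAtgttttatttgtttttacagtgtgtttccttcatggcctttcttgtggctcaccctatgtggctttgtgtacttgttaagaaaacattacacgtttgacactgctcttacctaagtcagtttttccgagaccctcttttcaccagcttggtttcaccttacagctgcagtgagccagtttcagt
Cd96, chr16:46120199-46120498, minus strand: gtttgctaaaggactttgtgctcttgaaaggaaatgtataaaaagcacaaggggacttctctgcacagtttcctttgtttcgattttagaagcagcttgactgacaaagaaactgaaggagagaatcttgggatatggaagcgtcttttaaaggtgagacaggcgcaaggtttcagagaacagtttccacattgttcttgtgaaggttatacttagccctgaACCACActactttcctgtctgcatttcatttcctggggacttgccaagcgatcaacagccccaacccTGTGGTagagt
Havcr2, chr11:46454681-46454980, plus strand: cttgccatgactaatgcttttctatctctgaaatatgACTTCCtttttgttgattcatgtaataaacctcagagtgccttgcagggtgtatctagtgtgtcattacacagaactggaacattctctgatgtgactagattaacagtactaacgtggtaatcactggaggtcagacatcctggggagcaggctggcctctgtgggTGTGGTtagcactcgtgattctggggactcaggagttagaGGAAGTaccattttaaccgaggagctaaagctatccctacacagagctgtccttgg
Vsir, chr10:60346601-60346900, plus strand: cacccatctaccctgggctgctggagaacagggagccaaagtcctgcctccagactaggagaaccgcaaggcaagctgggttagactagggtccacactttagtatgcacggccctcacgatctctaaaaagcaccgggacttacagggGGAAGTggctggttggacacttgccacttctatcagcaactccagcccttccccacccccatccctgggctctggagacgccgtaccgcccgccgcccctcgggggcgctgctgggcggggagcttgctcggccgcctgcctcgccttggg
The RUNX letters occurred 2 times in the Cd96 window, 1 time in the Tigit window, 1 time in the Havcr2 window and 0 times in the Vsir window. The ETS letters occurred 2 times in the Havcr2 window, 1 time in the Vsir window and 0 times in the Tigit and Cd96 windows. Over 27025 mouse promoters of the same length, 16.9% held the RUNX letters and 24.1% the ETS letters, so such matches are common and only describe the windows.

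Of 126 gene and class pairs, 65 passed the filter on low counts and were tested, and 2 passed an adjusted p of 0.05 (edgeR quasi-likelihood test, Benjamini-Hochberg over all genes of the class). Both were lower in AML lung, Cd226 in NK cell-like cells and Pvr in nonclassical monocyte-like cells. Over the genes of all 14 classes together, edgeR called 0.884%. DESeq2 also called 2 pairs, against 2.08% of all genes in the same classes. A further 12 pairs had an unadjusted p under 0.05. The other 12 classes held 55 tested pairs, of which edgeR called 0, with 10 at an unadjusted p under 0.05. DESeq2 called 0 of these. Over all genes, the share called was 1.08% in NK cell-like, 7.52% in nonclassical monocyte-like, 0.722% in classical monocyte-like, 0.0873% in cDC1-like, 0.0342% in conventional CD4 T cell-like and 0.0238% in regulatory T cell-like cells, and 0% in each of the other 8 classes, so in most classes few genes of any kind passed. The median log2 change over the tested members of a class ran from -0.37 in nonclassical monocyte-like cells to 0.46 in mature DC-like cells, against -0.01 to 0.05 over all genes. The member medians rest on 2 to 6 genes per class, so the width of their range cannot be set against that of all genes. In mature DC-like cells the 2 genes went opposite ways, Havcr2 at 1.13 and Pvr at -0.22. With 3 libraries per group there are only 20 arrangements, so groups without overlap arise easily and are only described below. The share of all genes without overlap was not counted.

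**Figure D1:**
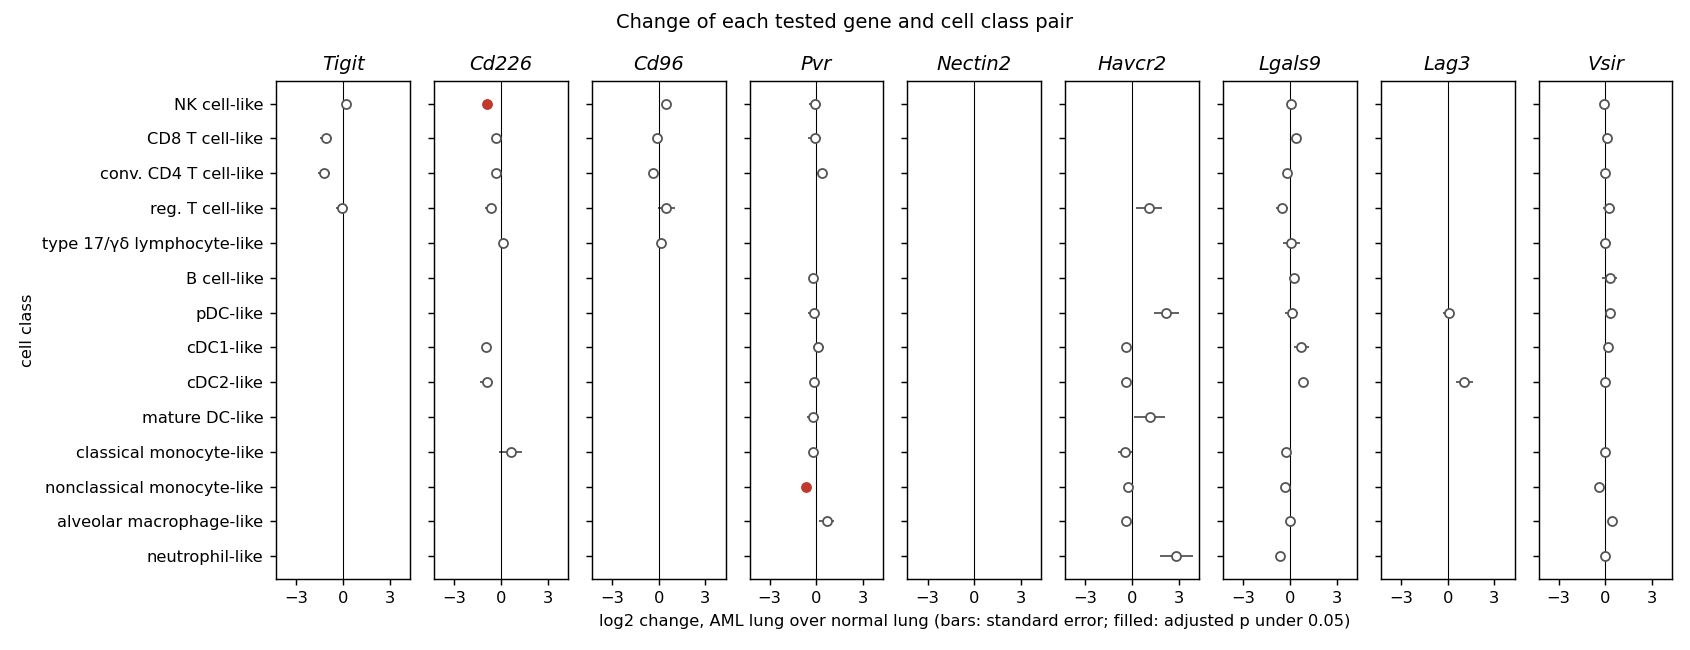
Log2 change of each tested pair, AML lung over normal lung, by gene (panels) and cell class (rows), with bars of 1 standard error. The filled points, Cd226 in NK cell-like and Pvr in nonclassical monocyte-like cells, are the 2 of 65 pairs with an adjusted p under 0.05, and both lie left of 0.

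Cd226, the activating member of the trio, was highest in type 17 or γδ lymphocyte-like cells at 583 ± 98.7 CPM (SD, n = 6 libraries). CPM are counts per 1000000 UMIs of the class in a library, scaled by TMM factors unless stated. CD8 T cell-like cells followed at 377 ± 83.9 CPM and conventional CD4 T cell-like cells at 325 ± 52.7 CPM, values within 1 SD of each other. Regulatory T cell-like cells held 220 ± 100 CPM (n = 5) and NK cell-like cells 108 ± 38.2 CPM (n = 6). Beyond lymphocytes, the gene was also measured in cDC1-like cells at 95.6 ± 36.3 CPM and in cDC2-like cells at 83.9 ± 44.3 CPM, whereas nonclassical monocyte-like cells held 0.523 ± 0.204 CPM (n = 6 each). Interstitial macrophage-like cells held 30.9 ± 23.4 CPM (without TMM scaling, n = 4), mature DC-like cells 0 to 62.4 CPM (n = 4, 19 UMIs) and pDC-like cells 2.79 ± 6.25 CPM (n = 5, 11 UMIs).

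In NK cell-like cells Cd226 was lower in AML lung. It stood at 82.7, 56.2 and 94.8 CPM in AML 1 to 3, against 122, 128 and 165 CPM in normal 1 to 3. All AML libraries lay below all normal libraries, AML 2 lowest and normal 3 highest. The means were 77.9 ± 19.7 CPM in AML lung, against 138 ± 23.0 CPM in normal lung (SD, n = 3 each), and the change was -0.89 on the log2 scale (SE 0.19, edgeR adjusted p = 0.0322). The adjusted p rose above 0.05 without AML 2 (log2 change -0.67, edgeR adjusted p = 0.161) and without normal 1, 2 or 3 (edgeR adjusted p = 0.101, 0.0763 and 0.168). The T cell list, a source of high Cd226, summed to 131 to 235 CPM in AML NK cell-like cells, against 102 to 138 CPM in normal ones, with all 6 of its markers detected and 0 of 4 tested ones changed. The CD8 list summed to 1.05 to 36.8 CPM in AML lung, against 0.446 to 1.39 CPM in normal lung, and the neutrophil list to 35.3 to 308 CPM and 30.7 to 44.2 CPM, in each case highest in AML 3. Their part in the result was not tested.

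NK cell-like cells were spread over several clusters in different shares, so Cd226 was read within single clusters, a comparison chosen after the data were seen. Cluster s3 held 54.8%, 20.2% and 0.696% of these cells in AML 1 to 3, against 62.7%, 63.1% and 47.2% in normal 1 to 3, and cluster s5 held 26.4%, 59.4% and 3.13%, against 23.3%, 23.5% and 28.2%. In AML 3, 95.8% of them fell in cluster s4, so that library had too few cells in s3 and s5 and was left out there. Within s5, Cd226 stood at 57.0 and 37.2 CPM (without TMM scaling) in AML 1 and 2, against 98.6, 109 and 155 CPM in normal 1 to 3. The groups did not overlap, and the log2 change was -1.39 (SE 0.26, edgeR adjusted p = 0.00825, with 2.23% of all genes called). Within s3, Cd226 stood at 96.2 and 89.3 CPM in AML 1 and 2, against 137, 137 and 182 CPM in normal 1 to 3. The direction was the same but the log2 change of -0.67 did not pass (SE 0.21, edgeR adjusted p = 0.127, with 0.964% of all genes called).

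In cDC1-like cells Cd226 also lay lower in every AML library. It had 76.3, 52.3 and 68.1 CPM in AML 1 to 3, against 145, 103 and 128 CPM in normal 1 to 3. The groups did not overlap, but the log2 change of -0.94 did not pass (SE 0.24, edgeR adjusted p = 0.193). In cDC2-like cells, with overlapping groups, it was -0.91 (SE 0.41, edgeR adjusted p = 0.50). The log2 changes in CD8 T cell-like, conventional CD4 T cell-like and regulatory T cell-like cells were -0.33 (SE 0.18), -0.29 (SE 0.18) and -0.65 (SE 0.36), and none of these passed either. In type 17 or γδ lymphocyte-like cells, where Cd226 was highest, it was 0.11 (SE 0.26).

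**Figure D2:**
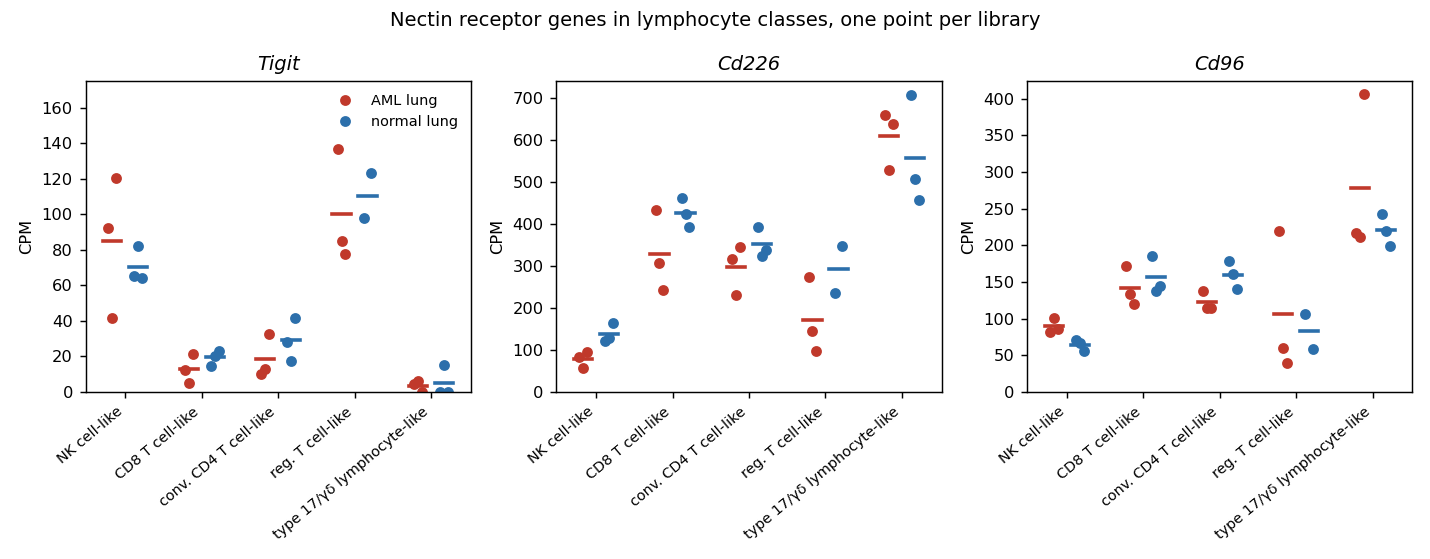
CPM of Tigit, Cd226 and Cd96 in 5 lymphocyte classes, a point per library and a bar at the group mean, AML lung red and normal lung blue. In NK cell-like cells the Cd226 points of AML lung (56.2 to 94.8 CPM) lie below those of normal lung (122 to 165 CPM), and the Cd96 points (81.1 to 101 CPM) above those of normal lung (55.6 to 70.3 CPM).

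Cd96 was ordered over lymphocytes much like Cd226, from 249 ± 78.0 CPM in type 17 or γδ lymphocyte-like cells through 149 ± 24.8 CPM in CD8 T cell-like and 141 ± 25.4 CPM in conventional CD4 T cell-like cells to 76.7 ± 16.1 CPM in NK cell-like cells (SD, n = 6 each). The CD8 and CD4 values lay within 1 SD of each other. Unlike Cd226, it was at 0.450 ± 1.10 CPM in cDC1-like cells (n = 6), from 2 UMIs. In NK cell-like cells Cd96 had 81.1, 101 and 85.6 CPM in AML 1 to 3, against 70.3, 66.4 and 55.6 CPM in normal 1 to 3. The AML libraries were all above the normal ones, opposite to Cd226, but the log2 change of 0.49 did not pass (SE 0.17, edgeR adjusted p = 0.15). In conventional CD4 T cell-like cells it had 137, 115 and 115 CPM in AML 1 to 3, against 179, 161 and 140 CPM in normal 1 to 3. Here the AML libraries were all below the normal ones, and the log2 change of -0.36 did not pass (SE 0.17, edgeR adjusted p = 0.489).

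Tigit, the inhibitory receptor, was highest in regulatory T cell-like cells at 104 ± 25.1 CPM (n = 5) and in NK cell-like cells at 77.7 ± 27.1 CPM (n = 6), levels within 1 SD of each other. Conventional CD4 T cell-like and CD8 T cell-like cells held 23.8 ± 12.5 and 16.1 ± 6.90 CPM (n = 6 each), and type 17 or γδ lymphocyte-like cells only 4 UMIs in all. In NK cell-like cells it had 92.3, 41.7 and 120 CPM in AML 1 to 3, against 65.3, 82.3 and 64.0 CPM in normal 1 to 3. The AML values spanned the normal ones, the log2 change being 0.18 (SE 0.27, edgeR adjusted p = 0.797). In CD8 T cell-like cells Tigit had 12.4, 4.92 and 21.3 CPM in AML 1 to 3, against 14.6, 20.4 and 23.2 CPM in normal 1 to 3. The groups overlapped through AML 3, and the fitted log2 change, which weights the deeper sums, was -1.11 (SE 0.39, edgeR adjusted p = 0.331). In conventional CD4 T cell-like cells it had 10.1, 12.7 and 32.9 CPM in AML 1 to 3, against 28.2, 17.1 and 41.7 CPM in normal 1 to 3, the log2 change being -1.23 (SE 0.40, edgeR adjusted p = 0.348). Again AML 3 overlapped the normal libraries.

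Whether NK cells and CD8 T cells changed differently was tested as a difference of the AML effect between the classes with the library as a block. The difference, NK minus CD8, was 1.09 for Tigit (SE 0.32, edgeR adjusted p = 0.187), 0.61 for Cd96 (SE 0.20, adjusted p = 0.270) and -0.59 for Cd226 (SE 0.22, adjusted p = 0.368). None of these passed, with 0.332% of all genes called, although all 3 had an unadjusted p under 0.05. Over all genes 848 of 9939 had such a value. Without AML 1, the difference of Cd96 passed (0.88, edgeR adjusted p = 0.0170). Between regulatory and conventional CD4 T cell-like cells 0 of the tested members were called, against 0% of all genes. Over all 3 pairs of classes compared, 18 member tests gave 0 calls and 4 had an unadjusted p under 0.05. Over all genes, 1871 of 11140 had such a value for nonclassical minus classical monocyte-like cells. For regulatory minus conventional CD4 T cell-like cells 192 of 5368 had it.

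Pvr, the shared ligand of the trio, was highest in mature DC-like cells at 171 ± 39.6 CPM (n = 4), above cDC2-like cells at 70.9 ± 17.5 CPM (n = 6) and pDC-like cells at 57.0 ± 17.5 CPM (n = 5). Mature DCs are the CCR7-positive dendritic cells that migrate to lymph nodes to meet T cells. They held 202 and 113 CPM in AML 2 and 3, against 187 and 184 CPM in normal 2 and 3, the other libraries having too few of these cells. The log2 change was -0.22 (SE 0.39, edgeR adjusted p = 0.986). Classical monocyte-like cells held 36.6 ± 7.67 CPM, nonclassical monocyte-like cells 23.1 ± 6.31 CPM and alveolar macrophage-like cells 3.83 ± 2.25 CPM (n = 6 each).

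In nonclassical monocyte-like cells, the patrolling monocytes of vessels, Pvr was lower in AML lung. It had 18.9, 18.8 and 15.8 CPM in AML 1 to 3, against 24.2, 30.4 and 30.6 CPM in normal 1 to 3. All AML libraries lay below all normal ones, and the log2 change was -0.66 (SE 0.16, edgeR adjusted p = 0.0390). The adjusted p rose above 0.05 without AML 1 (edgeR adjusted p = 0.0994) and without normal 1, 2 or 3 (edgeR adjusted p = 0.0702, 0.136 and 0.151), while the log2 change stayed between -0.76 and -0.61 in these fits. The class was made of different clusters in the groups. Clusters 0 and 2 held 90.4% and 1.07% of its cells in AML 1, 84.2% and 14.8% in AML 2 and 5.18% and 85.3% in AML 3, whereas cluster 12 held 94.5%, 94.6% and 83.1% of them in normal 1 to 3. Within cluster 12 alone, chosen after the data were seen, Pvr had 22.2, 35.1 and 15.3 CPM (without TMM scaling) in AML 1 to 3, against 25.0, 31.5 and 29.5 CPM in normal 1 to 3. There the groups overlapped through AML 2, which rested on 7 UMIs, and the log2 change was -0.44 (SE 0.25, edgeR adjusted p = 0.520, with 1.34% of all genes called).

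Of the marker lists of other cells, the interstitial macrophage and cDC2 lists separated the groups in this class. The interstitial macrophage list summed to 283 to 672 CPM in AML nonclassical monocyte-like cells, against 1296 to 2287 CPM in normal ones, with all 7 markers detected, 1 of 3 tested higher and 1 lower. The cDC2 list summed to 95.2 to 238 CPM in AML lung, against 22.3 to 33.6 CPM in normal lung, with 1 of 1 tested higher. Other lists overlapped between the groups. The classical monocyte list summed to 170 to 209 CPM in AML lung, against 199 to 218 CPM in normal lung, with 1 of 6 tested lower, the alveolar macrophage list to 607 to 920 CPM, against 641 to 1033 CPM, with 1 of 3 tested higher, and the neutrophil list to 134 to 402 CPM, against 192 to 213 CPM, with 1 of 5 tested lower. The class made up 50.3%, 39.5% and 13.7% of cells in AML 1 to 3, against 10.5%, 12.7% and 9.25% in normal 1 to 3. Whether leukaemic cells are among them cannot be told from the labels, and the part of these values in the result was not tested.

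Nectin2, the other ligand, was scarcely detected. It had 319 UMIs in all 6 libraries and was highest in endothelial cell-like cells at 8.07 ± 4.08 CPM (without TMM scaling, n = 6), which were not tested. It passed the filter in 0 of the 14 tested classes. In B cell-like, CD8 T cell-like, cDC1-like, regulatory T cell-like and type 17 or γδ lymphocyte-like cells 0 UMIs were found. An antisense gene, Gm20512, overlaps Nectin2, and Gm16251 overlaps Pvr in the same way, and Cdh23 overlaps Vsir on the opposite strand. The sources used here do not state how the counting treated strand.

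**Figure D3:**
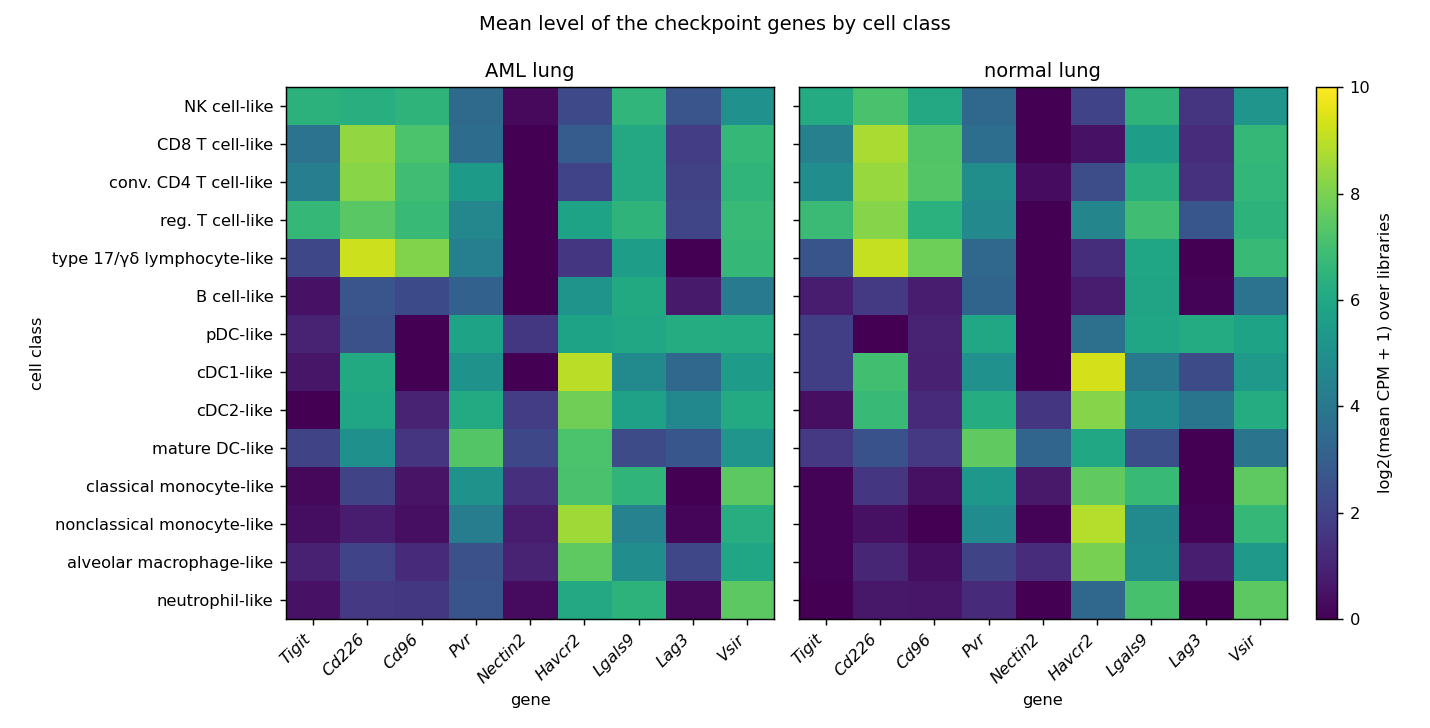
Mean level of the 9 genes, as log2(mean CPM + 1) over libraries, in 14 cell classes (rows) of AML lung (left) and normal lung (right). Cd226 and Cd96 are brightest in T and γδ lymphocyte rows, Havcr2 in cDC1-like and nonclassical monocyte-like rows, Pvr in the mature DC-like row and Lag3 in the pDC-like row, in both groups.

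Havcr2, which encodes TIM-3, was a myeloid and dendritic transcript in these lungs. It was highest in cDC1-like cells at 578 ± 139 CPM, followed by nonclassical monocyte-like cells at 425 ± 117 CPM and cDC2-like cells at 259 ± 104 CPM (SD, n = 6 each). Alveolar macrophage-like and classical monocyte-like cells held 216 ± 50.3 and 163 ± 78.7 CPM (n = 6 each), levels within 1 SD of each other. Among lymphocytes, regulatory T cell-like cells held 41.8 ± 26.4 CPM (n = 5) and CD8 T cell-like cells 3.42 ± 6.72 CPM from 11 UMIs (n = 6). In cDC1-like cells it had 441, 422 and 634 CPM in AML 1 to 3, against 512, 707 and 752 CPM in normal 1 to 3. The groups overlapped, and the log2 change was -0.40 (SE 0.22, edgeR adjusted p = 0.543). In cDC2-like, alveolar macrophage-like, classical and nonclassical monocyte-like cells the log2 changes lay between -0.46 and -0.29, none past the threshold.

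The largest fitted changes of Havcr2 were in cells where it is otherwise low, and neither of those given here passed. In neutrophil-like cells it had 13.5, 15.1 and 166 CPM in AML 1 to 3, against 12.7, 2.32 and 12.2 CPM in normal 1 to 3. AML 3 stood far above the other libraries, the log2 change being 2.84 (SE 1.05, edgeR adjusted p = 0.288). Without AML 3 it was 0.62 (edgeR adjusted p = 0.583), and it passed with no filter on low counts (2.69, edgeR adjusted p = 1.16e-11). In pDC-like cells it had 12.3, 47.4 and 104 CPM in AML 1 to 3, against 10.4 and 13.4 CPM in normal 1 and 3, the log2 change being 2.19 (SE 0.81, edgeR adjusted p = 0.352). It passed without AML 1 (2.65, edgeR adjusted p = 0.0277), with no filter on low counts (2.21, edgeR adjusted p = 0.00062) and with the replicate block (2.17, edgeR adjusted p = 0.0494). In B cell-like cells, where it did not pass the filter, AML 3 held 101 CPM and the other 5 libraries at most 2.53 CPM. The nonclassical monocyte list was also raised in these cells of AML lung, though not in B cell-like cells of AML 1. It summed to 590 to 1368 CPM in AML neutrophil-like cells, against 403 to 443 CPM in normal ones, to 300 to 809 CPM in AML pDC-like cells, against 139 to 160 CPM, and to 96.0 to 643 CPM in AML B cell-like cells, against 86.0 to 130 CPM. The alveolar macrophage list was highest in AML 3 in each of these classes. There it stood at 462 CPM in neutrophil-like, 610 CPM in pDC-like and 156 CPM in B cell-like cells. Normal libraries held at most 79.1, 64.2 and 42.9 CPM of it. The part of these lists in the Havcr2 values was not tested.

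Lgals9, which encodes the TIM-3 ligand galectin-9, was measured in lymphoid, myeloid and endothelial classes. It was highest in endothelial cell-like cells at 140 ± 22.2 CPM (without TMM scaling), above neutrophil-like cells at 110 ± 29.4 CPM (n = 6 each). Regulatory T cell-like cells at 102 ± 25.0 CPM (n = 5), classical monocyte-like cells at 100 ± 12.6 CPM and NK cell-like cells at 92.9 ± 5.84 CPM (n = 6 each) lay within 1 SD of their neighbours in this order. The 2 classes richest in Havcr2 held little of it, 20.9 ± 11.2 CPM in cDC1-like and 23.4 ± 3.97 CPM in nonclassical monocyte-like cells (n = 6 each). In neutrophil-like cells it had 108, 77.2 and 74.8 CPM in AML 1 to 3, against 144, 138 and 118 CPM in normal 1 to 3. The AML libraries were lower without overlap, the log2 change being -0.63 (SE 0.21, edgeR adjusted p = 0.267). In cDC2-like cells it had 63.5, 46.7 and 47.2 CPM in AML 1 to 3, against 28.0, 26.0 and 31.3 CPM in normal 1 to 3, the log2 change being 0.85 (SE 0.28, edgeR adjusted p = 0.382), and in CD8 T cell-like cells the log2 change was 0.40 (SE 0.18, edgeR adjusted p = 0.442). In both classes the AML libraries were the higher ones, without overlap, but neither change passed.

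Vsir, the VISTA gene, was highest in granulocytic and monocytic cells. Late neutrophil precursor-like cells, found in enough number only in AML lung, held 254 ± 27.4 CPM (without TMM scaling, n = 3), classical monocyte-like cells 181 ± 22.5 CPM and neutrophil-like cells 178 ± 31.8 CPM (n = 6 each). Interstitial macrophage-like cells followed at 117 ± 23.4 CPM (without TMM scaling, n = 4) and type 17 or γδ lymphocyte-like cells at 105 ± 47.3 CPM (n = 6). CD8 T cell-like cells held 99.9 ± 23.4 CPM, conventional CD4 T cell-like cells 94.1 ± 12.7 CPM and nonclassical monocyte-like cells 87.6 ± 16.7 CPM, while B cell-like cells were lowest at 14.7 ± 7.28 CPM (n = 6 each). In nonclassical monocyte-like cells Vsir had 75.2, 67.5 and 81.8 CPM in AML 1 to 3, against 114, 98.5 and 89.1 CPM in normal 1 to 3. The groups did not overlap, but the log2 change of -0.43 did not pass (SE 0.13, edgeR adjusted p = 0.0882), except without AML 3 (-0.49, edgeR adjusted p = 0.0389). In alveolar macrophage-like cells it had 56.9, 53.9 and 60.5 CPM in AML 1 to 3, against 49.2, 43.2 and 32.9 CPM in normal 1 to 3, higher in every AML library but not past the threshold (log2 change 0.45, SE 0.16, edgeR adjusted p = 0.392). In classical monocyte-like cells, with overlapping groups, the log2 change was -0.04 (SE 0.15).

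The difference of the AML effect between nonclassical and classical monocyte-like cells was -0.40 for Vsir (SE 0.14, edgeR adjusted p = 0.164) and -0.43 for Pvr (SE 0.20, edgeR adjusted p = 0.299). Neither passed, with 3.49% of all genes called, so a change particular to nonclassical monocyte-like cells was not shown. Without AML 3 the difference of Vsir passed (-0.55, edgeR adjusted p = 0.0133).

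**Figure D4:**
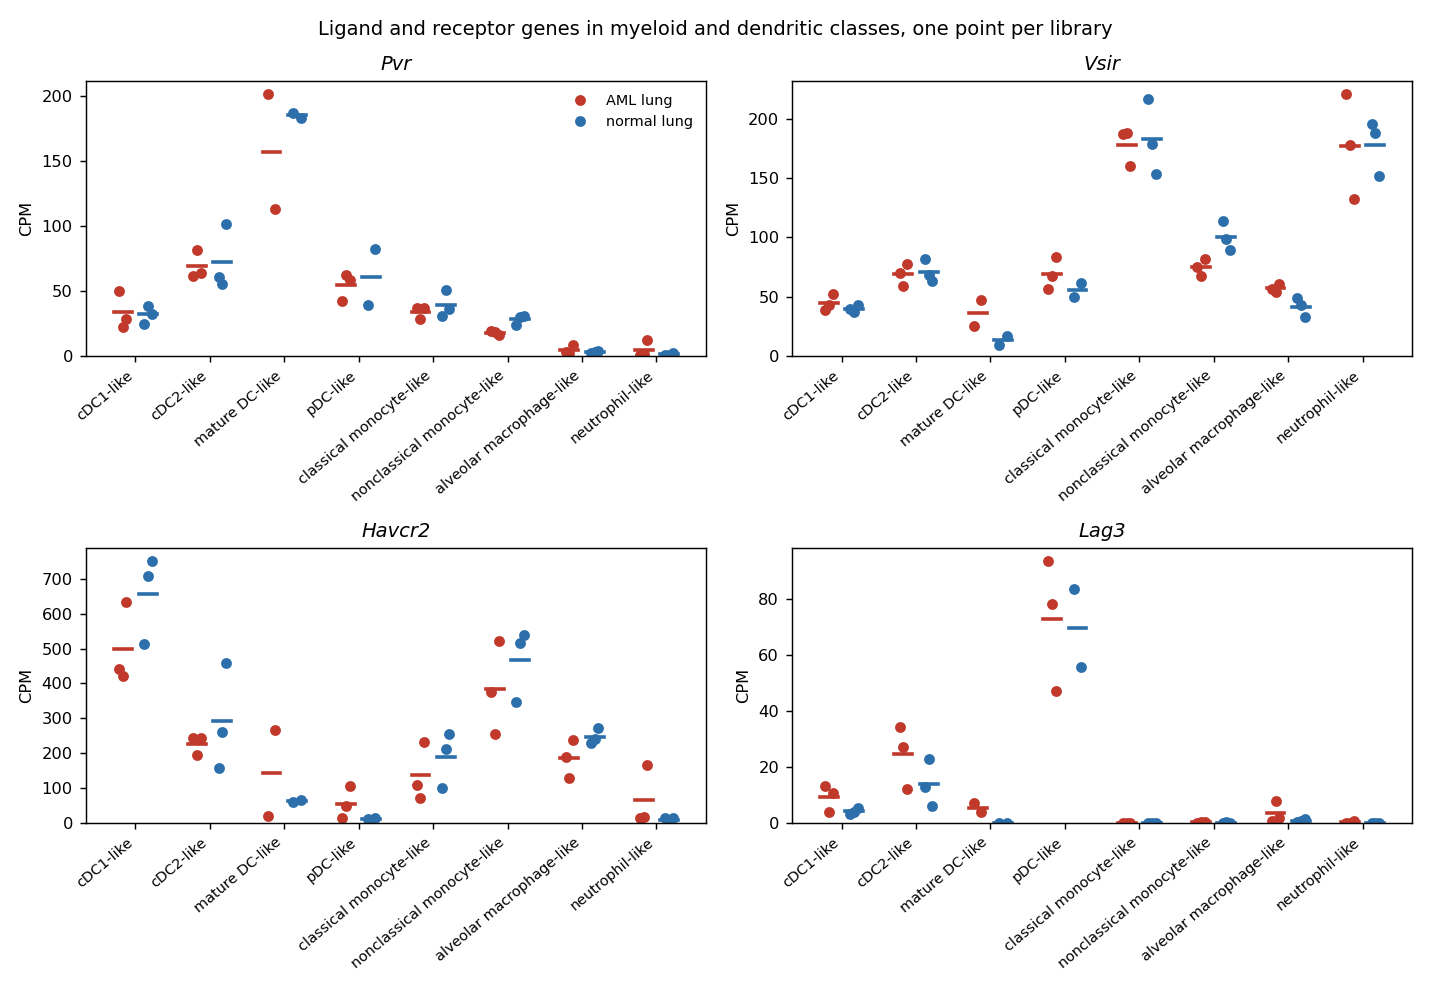
CPM of Pvr, Vsir, Havcr2 and Lag3 in 8 myeloid and dendritic classes, a point per library and a bar at the group mean, AML lung red and normal lung blue. The Pvr points of nonclassical monocyte-like cells separate the groups (15.8 to 18.9 CPM in AML lung, 24.2 to 30.6 CPM in normal lung), and Lag3 stands out in pDC-like cells of both groups.

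Lag3, which encodes the MHC class II receptor LAG-3, was highest in pDC-like cells, the plasmacytoid dendritic cells that make type I interferon, at 71.4 ± 19.5 CPM (n = 5). The next class, cDC2-like cells, held 19.2 ± 10.6 CPM (n = 6), and NK cell-like and CD8 T cell-like cells 3.59 ± 3.60 and 1.98 ± 1.38 CPM (n = 6 each) from 39 and 15 UMIs. In pDC-like cells it had 93.5, 77.9 and 47.0 CPM in AML 1 to 3, against 83.2 and 55.6 CPM in normal 1 and 3. The groups overlapped, the log2 change being 0.07 (SE 0.35, edgeR adjusted p = 0.963).

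Summed over every barcode of a library, Lag3 was higher in AML lung. It had 129, 207 and 207 UMIs, or 2.75, 3.25 and 4.38 CPM, in AML 1 to 3, against 63, 57 and 83 UMIs, or 1.19, 1.15 and 1.77 CPM, in normal 1 to 3. All AML libraries lay above all normal ones, and the log2 change was 1.34 (SE 0.29, edgeR adjusted p = 0.0371, with 9.9% of all genes called). In such sums more cells of a type and more RNA per cell cannot be told apart. The adjusted p rose above 0.05 without AML 1 or AML 2 (edgeR adjusted p = 0.0875 and 0.0788) and without normal 1 or normal 2 (edgeR adjusted p = 0.117 and 0.142). pDC-like cells made up 0.852%, 0.847% and 1.64% of cells in AML 1 to 3, against 0.639%, 0.285% and 1.03% in normal 1 to 3. Outside them, Lag3 had 1.63, 2.50 and 3.35 CPM in AML 1 to 3, against 0.598, 0.991 and 1.25 CPM in normal 1 to 3, so the AML libraries were also the higher ones there. In AML 3, 43.1% of Lag3 UMIs were in the cells set aside for RNA of another lineage. With doublets left out, these were 32.1% of AML 3 cells. They held from 25% (Nectin2) to 58.0% (Tigit) of the UMIs of the other 8 genes there, so this share is not particular to Lag3.

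Of the other 8 genes, 0 passed in the whole libraries, and Vsir and Cd226 had an unadjusted p under 0.05, as had 5121 of 16856 genes. Vsir had 86.5, 86.3 and 103 CPM in AML 1 to 3, against 78.3, 69.0 and 60.4 CPM in normal 1 to 3, the log2 change being 0.41 (SE 0.13, edgeR adjusted p = 0.0920). The AML libraries were higher without overlap, whereas within classical monocyte-like and neutrophil-like cells the groups overlapped. Cd226 had 39.3, 29.7 and 30.9 CPM in AML 1 to 3, against 36.8, 43.3 and 64.5 CPM in normal 1 to 3, and the groups overlapped through AML 1 (log2 change -0.53, SE 0.22, edgeR adjusted p = 0.158).

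**Figure D5:**
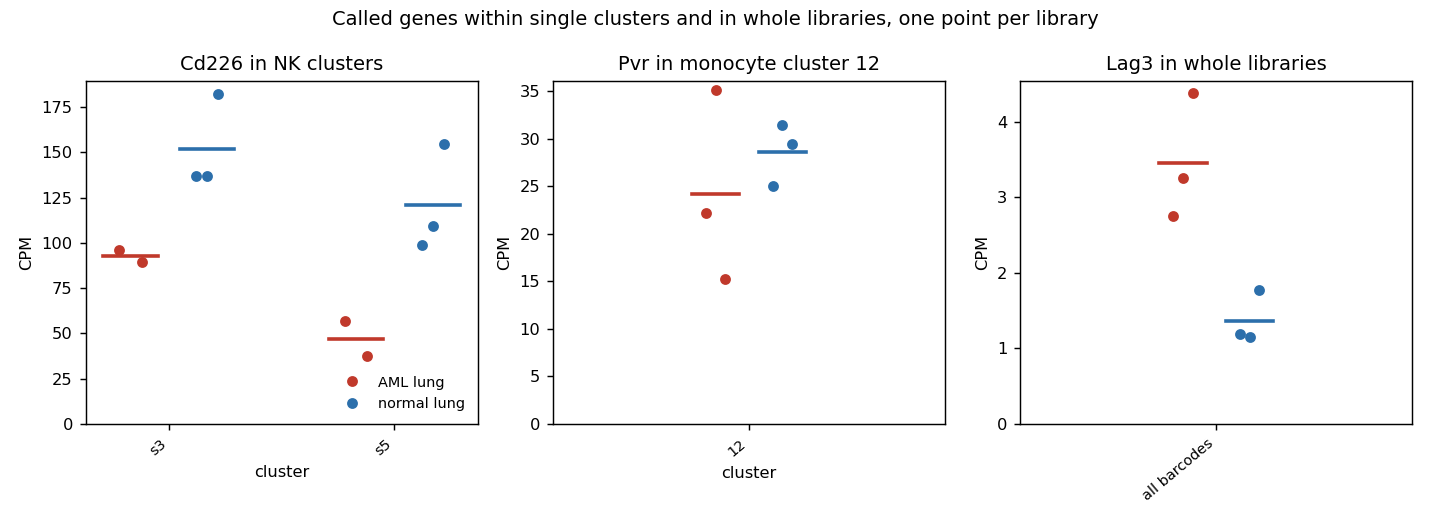
CPM of Cd226 in NK clusters s3 and s5 and of Pvr in monocyte cluster 12 (without TMM scaling, libraries with at least 20 cells), and of Lag3 in whole libraries, a point per library and a bar at the group mean, AML lung red and normal lung blue. Cd226 in s5 (37.2 and 57.0 CPM in AML lung, 98.6 to 155 CPM in normal lung) and Lag3 (2.75 to 4.38 CPM in AML lung, 1.15 to 1.77 CPM in normal lung) separate the groups, and Pvr in cluster 12 does not.

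Further genes of these pathways were read from 6 lists of 33 genes, chosen with earlier results known. Of 246 tested gene and class pairs, 1 was higher and 3 were lower in AML lung, all in nonclassical monocyte-like cells, where 7.52% of all genes were called. Of the nectins and relatives 0 of 20 pairs rose and 1 fell, and of the galectins 1 of 42 rose and 0 fell. Of the signalling genes 0 of 99 rose and 1 fell. The LAG-3 ligand list also held Cd74, the invariant chain of MHC class II. Of its 45 pairs 0 rose and 1 fell, which was Cd74. Among the 4 genes of this list tested in nonclassical monocyte-like cells, only Cd74 had an unadjusted p under 0.05. The 25 pairs of the TIM family and TIM-3 ligands and the 15 of VISTA ligands and relatives gave 0 calls in edgeR, with 7 and 0 at an unadjusted p under 0.05. DESeq2 called 14 of the 246 pairs, against 2.08% of all genes, and in edgeR 47 had an unadjusted p under 0.05.

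Nectin1, an adhesion molecule of the same family as the ligands, had 31.8, 25.1 and 36.4 CPM in AML 1 to 3, against 60.4, 78.4 and 50.9 CPM in normal 1 to 3. It fell without overlap, by 1.04 on the log2 scale (SE 0.19, edgeR adjusted p = 0.0166). Cd74, the invariant chain of MHC class II, had 287, 492 and 416 CPM in AML 1 to 3, against 532, 1097 and 1186 CPM in normal 1 to 3, the log2 change being -1.24 (SE 0.30, edgeR adjusted p = 0.0419). Inpp5d, which encodes the phosphatase SHIP1 recruited by inhibitory receptors, had 529, 459 and 444 CPM in AML 1 to 3, against 656, 702 and 649 CPM in normal 1 to 3 (log2 change -0.49, SE 0.12, edgeR adjusted p = 0.0427). In all 3 genes every AML library lay below every normal one. Lgals3, which encodes galectin-3, went the other way, with 657, 1096 and 514 CPM in AML 1 to 3, against 309, 414 and 396 CPM in normal 1 to 3 (log2 change 1.02, SE 0.26, edgeR adjusted p = 0.0477). As with Pvr, the class held different clusters in the groups, and each of the 4 calls was lost when some libraries were left out in turn. This was so for Nectin1 without AML 1, normal 1 or normal 2 (edgeR adjusted p = 0.0567, 0.0754 and 0.0792) and for Cd74 without AML 1, normal 2 or normal 3 (edgeR adjusted p = 0.126, 0.148 and 0.159). For Inpp5d it was so without any library other than AML 3 (edgeR adjusted p of 0.0682 to 0.157), and for Lgals3 without AML 1 or any normal library (edgeR adjusted p of 0.0861 to 0.20).

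In whole libraries, 3 of 28 tested pathway genes were higher in AML lung and 0 were lower, beside 9.9% of all genes called. Ceacam1, which encodes a ligand of TIM-3, had 164, 143 and 85.1 CPM in AML 1 to 3, against 48.7, 55.3 and 46.7 CPM in normal 1 to 3 (log2 change 1.38, SE 0.23, edgeR adjusted p = 0.0223). Itgal, which encodes the integrin chain CD11a, had 636, 458 and 430 CPM in AML 1 to 3, against 293, 265 and 251 CPM in normal 1 to 3 (log2 change 0.91, SE 0.17, edgeR adjusted p = 0.0267). Ptpn6, which encodes the phosphatase SHP-1 recruited by inhibitory receptors, had 325, 250 and 241 CPM in AML 1 to 3, against 179, 159 and 147 CPM in normal 1 to 3 (log2 change 0.75, SE 0.15, edgeR adjusted p = 0.0323). In all 3 genes every AML library lay above every normal one. Each call was lost without any library other than AML 3, at edgeR adjusted p of 0.055 to 0.0975 for Ceacam1, 0.0531 to 0.118 for Itgal and 0.0617 to 0.132 for Ptpn6, and with the replicate block (edgeR adjusted p = 0.0618, 0.0578 and 0.0597).

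Over 21 cell classes the mean levels of Cd226 and Cd96 had a Pearson r of 0.86, those of Tigit and Cd96 of 0.81 and those of Tigit and Cd226 of 0.72, and Havcr2 and Cd96 ran opposite at -0.82. These are descriptions over classes that share the same 6 libraries. Among 12775 genes, the 3 most alike in level to Tigit were Sytl2, Il2rb and Sh2d1a, with r of 0.94, 0.93 and 0.93. Those of Cd96 were Skap1, Cd247 and Trbc1 (0.97, 0.96 and 0.95), those of Cd226 were Kcnn4, Sbf1 and Skap1 (0.92, 0.91 and 0.89), and those of Havcr2 were Alpk1, Pid1 and Slc7a7 (0.92, 0.91 and 0.91). For Vsir they were Slfn1, Armc7 and Cdk2ap2 (0.82, 0.75 and 0.74), for Pvr Myo1h, Phf11a and Tspan3 (0.84, 0.82 and 0.80), and for Lgals9 Notch1, Arl15 and Maf1 (0.80, 0.79 and 0.78). For Lag3 they were Gpr162, Mvb12a and Lefty1 (0.83, 0.78 and 0.77), and for Nectin2, at its low counts, Samd4, Kirrel and Ltbp2 (0.88, 0.86 and 0.86). The 3 genes alike to Lag3 were highest in pDC-like cells.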

How the data were processed

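The authors deposited raw UMI counts for each gene in each barcode. Per the submitters' processing notes, Cell Ranger 7.0.0 and the build mm10 were used. How barcodes were selected before deposit is not stated in the sources used here. Cells were kept from 200 genes and 500 UMIs upwards and with at most 10% mitochondrial UMIs, and 1546 doublets predicted by Scrublet (scanpy 1.11.5) were left out; in AML 2, AML 3 and normal 3 its own threshold marked 0% of cells, so 0.2235 was used there.

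Cells were clustered (2000 variable genes, 30 principal components, 15 neighbours, leidenalg 0.10.2 at resolution 1, and 1.5 for T and NK cells) without the 9 genes, giving 30 clusters and 29 T and NK sub-clusters. A cluster was called "X-like" when at least 3 markers of X were raised (the T cell list counting for T subsets), the next list scored at most 0.6 of it, and its 10 leading genes did not go against it; 9 sub-clusters stayed unnamed. Leading genes were taken against cells outside clusters of the same best list, and cells with at least 2 UMIs of another lineage's panel, above 0.1 of that lineage's median share, were set aside. Both of these rules were chosen after the data were seen. Classes hold 53896 cells, 75.2% of those kept.

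UMIs were summed per library and class with at least 20 cells. The sums were tested in edgeR 4.0.16 (R 4.3.3, TMM, filterByExpr, quasi-likelihood F test, Benjamini-Hochberg) where each group had at least 2 such libraries. Endothelial cell-like cells and cycling classes were left out of the tests. CPM are UMIs per 1000000 of the TMM-scaled class sum; classes that were not fitted, marker lists and single clusters have plain sums. A 3' kit counts an RNA once whatever its length, so CPM was compared between genes without a length correction. Tested on simulated counts, the fit recovered genes changed by known folds. These were changes of at least 2-fold in genes above 20 CPM, in 3 of the fits. Smaller changes and lower genes, such as Lag3 in whole libraries, were not covered. No libraries of a group agreed within sampling noise (chi-square per degree of freedom 42.4 to 163), which bears on double deposit only and does not show separate animals. DESeq2 1.42.0 and the other alternatives stand in the closing section. Named genes were the 9 members, pathway genes past the threshold, and per member the 3 genes most correlated in log2(CPM + 1) over classes, among genes of at least 5 CPM in a class. Members, lists and markers were chosen with earlier results of these data known.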

Additional observations from a re-analysis of the deposited data

How the results depend on the processing

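Over the genes of all classes together, 0.884% were called, against 2.38% with no filter on low counts, 1.76% with the replicate block, 2.08% with DESeq2, 0.335% with cells gated by their own UMIs, 0.778% with no cross-lineage gate and 0.182% to 3.15% when a library was left out, and the counts below stand beside these shares. The 2 member calls in classes became 8 with no filter, 0 with cells gated by their own UMIs, 1 with no cross-lineage gate (added after seeing the data) and 0 to 3 when a library was left out. The 4 pathway calls became 39 with no filter, 13 with the replicate block, 14 with DESeq2, 1 with cells gated by their own UMIs and 0 to 11 when a library was left out. The 1 member call in whole libraries became 0 with the replicate block and 0 to 1 when a library was left out. The 0 calls between class effects became 0 to 1 when a library was left out. Every other alternative run on these counts (RLE or plain library sizes, doublets kept, a finer clustering, at least 1000 UMIs per cell) left them within 1.5 times. Same-numbered libraries correlated at 0.28, -0.19 and -0.11, and differently numbered ones at -0.29 to 0.34. With 3 libraries per group this cannot decide whether the numbers pair them. Median UMIs per barcode fell from library 1 to library 3 in both groups. The replicate block gave 3 member calls in classes, the added one being Havcr2 in pDC-like cells (log2 change 2.17, edgeR adjusted p = 0.0494; over 13 alternatives, 3 passed, at 0.00062 to 0.888), and Lag3 in whole libraries had an adjusted p of 0.0687.

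Single values were followed over the alternatives only for members tested in the main fit and for pathway genes called there. Of these, 1390 kept their side of the threshold, 56 no longer passed and 9 newly passed. New calls among other pairs are not in this tally and are part of the counts above. Of the values that passed in the main fit or the alternative, 0 reversed their direction. Values that passed in neither were not checked for direction. Cd226 in NK cell-like cells passed in 11 of 18 alternatives (log2 change -1.39 to -0.67), Pvr in nonclassical monocyte-like cells in 11 of 17 (-0.76 to -0.44) and Lag3 in whole libraries in 6 of 11 (1.11 to 1.57). The 18 include the fits within clusters s3 and s5 and the 17 that within cluster 12, all chosen after the data were seen. Cluster s5 was among the fits that passed and gave the -1.39, while cluster 12 gave the -0.44 and did not pass. With cells gated by their own UMIs, Cd226 had an edgeR adjusted p of 0.309 and Pvr of 0.106, and with no cross-lineage gate Cd226 had 0.302. The causes were not tested. Low counts also limited what could be tested. Nectin2 did not pass the filter in any tested class, and Lag3 passed it only in pDC-like and cDC2-like cells. In AML 3 the tested lymphocyte classes had medians of 733 to 822 UMIs per cell.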

Other observations

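An unnamed T and NK sub-cluster, s10, held UMIs of both Lag3 and Havcr2, summed over cells without asking whether single cells held both. Its leading genes were Igha, Jchain, Igkc, Gzmb, Ighg2b, Pclaf, Mzb1, Ighg1, Ctla4 and Hist1h2ae, a mixture of plasma cell, cytotoxic and cell cycle genes, and it held 291 cells of AML lung, against 33 of normal lung. The 20 cells of AML 2 had 88.0 CPM of Lag3 and 264 CPM of Havcr2, and the 267 cells of AML 3 had 81.5 and 360 CPM, levels of Lag3 above those of the named T and NK classes. The 4 cells of AML 1 had 0 UMIs of either gene, as did the 3 and 5 cells of normal 1 and 2. The 25 cells of normal 3 had 6.08 CPM of Lag3, from 1 UMI, and 24.3 CPM of Havcr2. The plasma cell list was at 0 CPM in AML 2, AML 3 and normal 2, and at 7195 CPM in AML 1, against 3232 and 4068 CPM in normal 1 and 3. The T cell list was at 1959, 4364 and 3559 CPM in AML 1 to 3, against 1385, 2352 and 1624 CPM in normal 1 to 3. The CD8 list was at 153, 679 and 794 CPM in AML 1 to 3, against 12.2, 57.4 and 219 CPM in normal 1 to 3. For the NK cell list these were 1012, 2314 and 3146 CPM, against 365, 2333 and 839 CPM. For the regulatory T cell list they were 2281, 1488 and 1249 CPM, against 474, 1243 and 1393 CPM. For the cycling list they were 1751, 1735 and 2291 CPM, against 2163, 2046 and 2761 CPM. These lists do not settle which cells the cluster holds. A Cd8 UMI was found in 25%, 75% and 58.4% of cells in AML 1 to 3, against 33.3%, 60% and 32% in normal 1 to 3. The cell numbers allow no test, and these values were singled out after they were seen.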
